A study of Homo sapiens with 12 samples.

Results

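The comparison set 12 h of THZ1 at 50 nM against 6 h of the same dose in KYSE510 and TE7. Both are established human lines grown from squamous carcinoma of the esophagus. It took the 4 libraries labelled with that drug, dose and those times, out of 12 in the series, and paired them by cell line. KYSE510 and TE7 after 12 h at 50 nM were set against KYSE510 and TE7 after 6 h at 50 nM, with 1 polyadenylated RNA library per line and time. No DMSO library entered, since none is labelled 6 h, so hours under drug and hours in culture cannot be told apart. The libraries of 2 h and 4 h at 50 nM joined the 4 in the statistical fit of 8 libraries, where they served to estimate the spread. The 2 lines grew in different media (RPMI-1640 for KYSE510, DMEM for TE7).

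THZ1 is a covalent inhibitor of CDK7, the kinase of the general factor TFIIH that phosphorylates the tail of RNA polymerase II, and it also inhibits CDK12 and CDK13. When synthesis of messenger RNA is reduced, the level of each transcript follows how much is still made and how fast the existing copies decay. FPKM, the fragments of a gene scaled by transcript length and by the mapped fragments of its library, is a relative scale. A transcript that decays slowly can thus stand higher on it while the total falls, and an even loss of RNA per cell leaves no trace. Each change below is therefore given as deposited and, where it matters, relative to the median gene.

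FPKM summed to 512828 in KYSE510 and 729515 in TE7 at 12 h, against 535976 and 650109 at 6 h, and 11685 and 12364 genes reached 1 FPKM at 12 h, against 12442 and 12964 at 6 h. Squamous keratins were abundant at both times, with KRT5 at 1879 and 1617 FPKM in KYSE510 and TE7 at 12 h, against 1615 and 1302 FPKM at 6 h. VIM and the leukocyte gene PTPRC stayed at or below 0.17 FPKM in the 4 libraries, and the endothelial genes VWF, CDH5 and KDR at or below 0.153 FPKM. Of the leukocyte list, only CD68 was tested, and of the fibroblast list COL1A1 and DCN, none of them past the threshold. CD68 had 10.5 FPKM in KYSE510 and 9.54 FPKM in TE7 at 12 h, against 12.7 and 5.59 FPKM at 6 h. COL1A1 had 8.66 FPKM in KYSE510 at 12 h, against 8.54 FPKM at 6 h, and was below 1 FPKM in TE7. DCN had 3.27 FPKM in TE7 at 12 h, against 2.64 FPKM at 6 h, and was below 1 FPKM in KYSE510. Mitochondrially encoded genes held 27.29% of summed FPKM in TE7 at 12 h, against 18.89% at 6 h, and 0.02% and 0.01% in KYSE510. A single short gene, RNU6-1306P, was listed at 47722 FPKM in the KYSE510 library of 6 h, 8.9% of its sum, and at 0 in the other 7 libraries. Whether the low mitochondrial values in KYSE510 and this high one come from the RNA or from the authors' masking or gene estimates cannot be told from the tables, so these shares are given as listed. FPKM are scaled by mapped fragments and their sums differ between libraries, so a share of the sum is not a share of fragments. How far these genes bear on the values below cannot be told without fragment totals. Scalings with and without them are given in the closing part.

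Of 14797 genes tested, 5002 (33.8%) passed an adjusted p of 0.05 in limma's moderated test, 4247 of them lower at 12 h (28.7%) and 755 higher (5.1%). An unadjusted p under 0.05 was reached by 6808 genes. Differences are on the log2(FPKM + 1) scale, 12 h minus 6 h, here and below. The median gene was at -0.23 in KYSE510 and -0.29 in TE7. Among genes past the threshold the median change was -0.76 for those that fell (5th to 95th percentile -1.39 to -0.42) and 0.49 for those that rose (0.29 to 1.28). Median-of-ratios scaling, which put the median of all genes at 0.00, turned the split to 2663 higher and 1856 lower genes, and upper-quartile scaling to 2507 higher and 2017 lower. As deposited, 8828 were lower in both lines, 2619 were higher in both, and 2888 went opposite ways.

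The number of calls depended on the library left out. The median change over all genes was still -0.28 without the KYSE510 or without the TE7 library of 6 h. Leaving out a library also changes the estimate of the spread, so these counts do not show in which libraries the change lies. Without the KYSE510 library of 6 h the same test called 0 genes (4290 at an unadjusted p under 0.05), and without the TE7 library of 6 h it called 660, of which 658 were among the 5002. Without the KYSE510 library of 12 h the count was 7623. No member of any list below passed without the KYSE510 library of 6 h. With 1 library per line and time the lines stand in for replicates, so each p-value reflects variation among 8 libraries of 2 lines and may be partly technical.

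**Figure D1:**
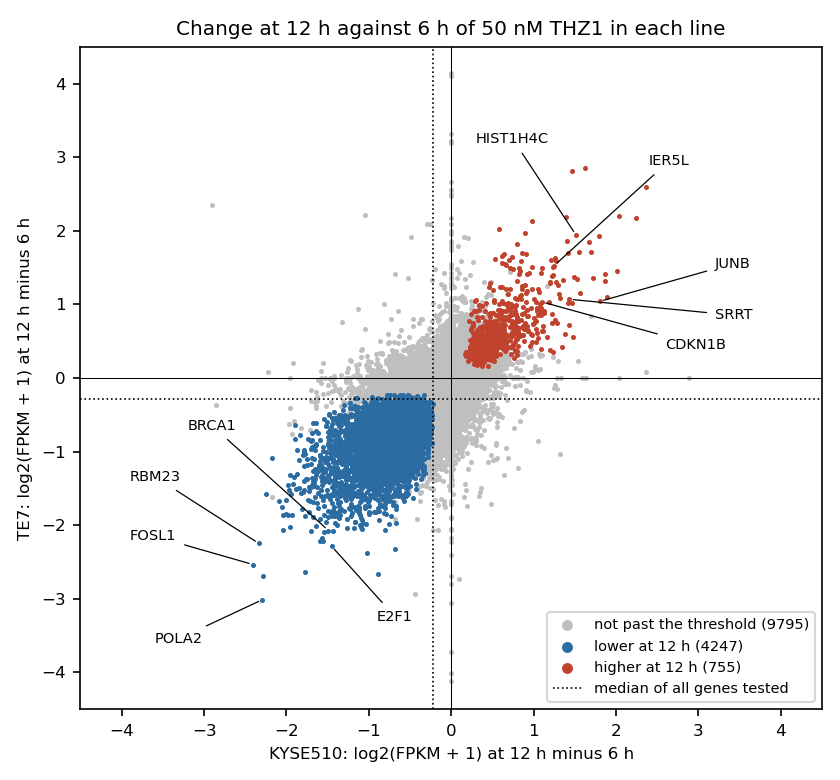
Difference in log2(FPKM + 1) at 12 h minus 6 h, in KYSE510 (x axis) and TE7 (y axis). Each point is 1 of 14797 genes tested, coloured by the test over both lines; dotted lines mark the medians at -0.23 and -0.29, and 3 genes lie outside the axes. The cloud of 4247 lower genes sits at the lower left, and the 755 higher genes form a smaller tail at the upper right.

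Relative to the median gene, the main setting had more rises than falls. The order was not kept with a pseudocount of 5 (1637 higher, 1773 lower) or with no filter (581 higher, 2122 lower). The centring did not put the median 12 h minus 6 h change at 0. Over all genes tested it was 0.05, which tilts these counts and values toward rises. After each library was centred on its median deviation from the gene means, 4171 genes (28.2%) passed, 2409 higher (16.3%) and 1762 lower (11.9%). Every one of the 755 rises also passed as a relative rise, and 1654 further genes passed as relative rises that had not passed as deposited. Of the 4247 falls, 1762 fell further than the median gene by this test and 2485 did not pass. Without either 6 h library the relative test called 0 genes (3749 and 3839 at an unadjusted p under 0.05 without the KYSE510 and the TE7 library), without a 4 h library 2464 or 2597, and without the KYSE510 library of 12 h 6842.

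The 4247 falls were chosen on 12 h against 6 h, so a large last step in their course was set by that choice. The last step also covers more hours than the earlier ones. Over all genes tested the median change from 2 h in KYSE510 was -0.05 at 4 h, -0.09 at 6 h and -0.36 at 12 h. In TE7 it was -0.04, -0.14 and -0.48. For the 4247 genes, the median change from 2 h in KYSE510 was -0.11 at 4 h, -0.24 at 6 h and -0.99 at 12 h, and in TE7 it was -0.13, -0.36 and -1.21. For the 755 risen genes it was 0.13, 0.23 and 0.67 in KYSE510 and 0.11, 0.18 and 0.65 in TE7. These courses describe genes chosen by their 12 h and 6 h values and carry no test.

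FOSL1 (ENSG00000175592; hg19 chromosome 11, 65659520 to 65668044), which encodes a FOS-family subunit of the AP-1 transcription factor, fell furthest by the ranking on the smaller of both lines' changes. It stood at 9.95 FPKM in KYSE510 and 27.7 FPKM in TE7 at 12 h, against 57.0 and 165 FPKM at 6 h. Both 12 h libraries were below both 6 h libraries, and the change was -2.47 ± 0.13 (standard error; limma adjusted p = 0.00238). Its levels had been 157, 100 and 57.0 FPKM at 2, 4 and 6 h in KYSE510 and 316, 254 and 165 FPKM in TE7, so the value declined at each time sampled.

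POLA2 (chromosome 11, 65029233 to 65073060) encodes the accessory subunit of DNA polymerase alpha, which starts new strands. It had 3.27 FPKM in KYSE510 and 3.2 FPKM in TE7 at 12 h, against 19.9 and 32.9 FPKM at 6 h, a change of -2.65 ± 0.26 (limma adjusted p = 0.00286). GJB5 (chromosome 1, 35220648 to 35224113), a gap junction protein of stratified epithelium, had 3.2 and 4.24 FPKM at 12 h in KYSE510 and TE7, against 19.5 and 32.8 FPKM at 6 h. Its change was -2.49 ± 0.17 (limma adjusted p = 0.00238). The 12 h values of both genes lay in a narrow range although at 2 h POLA2 had 30.1 FPKM in KYSE510 and 61.9 FPKM in TE7, and GJB5 22.9 and 46.1 FPKM.

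RBM23 (chromosome 14, 23369854 to 23388393), an RNA-binding protein gene, fell almost equally in both lines. It had 7.87 FPKM in KYSE510 and 7.34 FPKM in TE7 at 12 h, against 43.7 and 38.6 FPKM at 6 h, a change of -2.29 ± 0.09 (limma adjusted p = 0.00238). The secreted WNT antagonist DKK1 changed by -2.05 ± 0.20, with 9.33 and 22.5 FPKM at 12 h in KYSE510 and TE7, against 41.5 and 97.7 FPKM at 6 h. The next in rank were METTL1 (-1.99 ± 0.17), a transfer RNA methyltransferase gene, TMEM185B (-1.93 ± 0.10), GEMIN7 (-1.95 ± 0.11), part of the SMN complex that assembles small nuclear ribonucleoproteins, TNFRSF1A (-1.90 ± 0.10), a receptor of tumour necrosis factor, RFC4 (-1.93 ± 0.14), a subunit of the replication clamp loader, C2orf74 (-1.79 ± 0.19) and PRIM1 (-2.21 ± 0.27), the catalytic subunit of primase. Of these 12 genes, 4 belong to listed groups described below, and 3 of the 4 to DNA replication. Each of the 12 also passed relative to the median gene.

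As deposited, late rises were fewer than late falls, an order that turned round relative to the median gene in the main setting, as given above. The threshold of 1 log2 unit in each line was passed by 49 genes upward (0.331%) and 534 downward (3.61%). SRRT (chromosome 7, 100472733 to 100486285) encodes ARS2, a partner of the nuclear cap-binding complex, and was the most abundant among the 12 named rises. It had 332 FPKM in KYSE510 and 274 FPKM in TE7 at 12 h, against 122 and 130 FPKM at 6 h, and its 2 h and 4 h values lay between 101 and 116 FPKM. It rose by 1.25 ± 0.12 (limma adjusted p = 0.00279), a step that came after 6 h in both lines.

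JUNB, another AP-1 subunit, and CDKN1B, an inhibitor of cyclin-dependent kinases, dipped first and stood higher again at 12 h. JUNB had 252 FPKM in KYSE510 and 239 FPKM in TE7 at 12 h, against 71.6 and 116 FPKM at 6 h, a change of 1.42 ± 0.26 (limma adjusted p = 0.0101). At 2 h it had been at 136 and 186 FPKM. CDKN1B had 16.3 and 11.3 FPKM at 12 h in KYSE510 and TE7, against 7.07 and 5.0 FPKM at 6 h, a change of 1.07 ± 0.12 (limma adjusted p = 0.00354), and 12.7 and 11.1 FPKM at 2 h. Both 12 h libraries lay above both 6 h libraries for each gene.

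IER5L rose steadily, with 5.87, 8.02, 15.4 and 37.9 FPKM at 2, 4, 6 and 12 h in KYSE510 and 10.5, 14.1, 19.7 and 58.7 FPKM in TE7. The 12 h against 6 h change was 1.39 ± 0.13 (limma adjusted p = 0.0028). RBM33 (1.29 ± 0.11), an RNA-binding protein gene, SCAI (1.31 ± 0.12), known as a suppressor of cancer cell invasion, and UHRF2 (1.24 ± 0.10), a ubiquitin ligase that reads modified DNA, were nearly flat up to 6 h. UHRF2, for example, had 12.9, 13.6 and 13.0 FPKM at 2, 4 and 6 h in KYSE510 and 31.2 FPKM at 12 h. ICAM5 (1.44 ± 0.21), a cell adhesion gene, and SNHG9 (1.32 ± 0.12), a small nucleolar RNA host gene, completed the set with HIST2H2BE below. CHMP4BP1 (2.12 ± 0.20) is a processed pseudogene whose parent CHMP4B had 83.0 and 108 FPKM at 12 h in KYSE510 and TE7, against 80.2 and 111 FPKM at 6 h. NME2 (1.20 ± 0.12) overlaps NME1 on the tables' coordinates, so both assignments are uncertain.

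**Figure D2:**
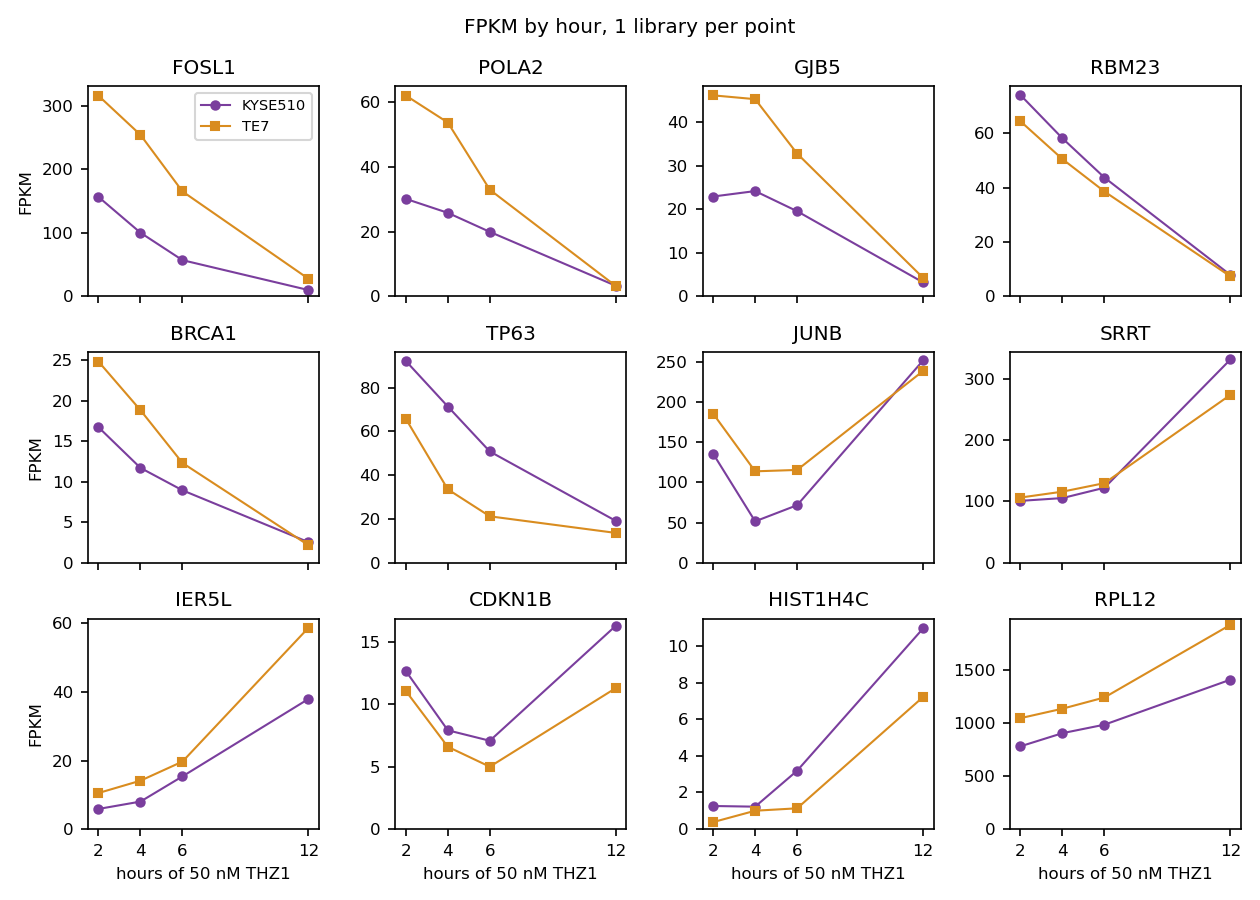
FPKM (y axis, from 0, own scale per gene) at 2, 4, 6 and 12 h of 50 nM THZ1 (x axis) for 12 genes, 1 library per point, KYSE510 as circles and TE7 as squares. FOSL1, POLA2, GJB5, RBM23, BRCA1 and TP63 are lowest at 12 h in both lines, JUNB and CDKN1B dip before 12 h, and SRRT stays between 101 and 130 FPKM to 6 h and reaches 332 and 274 FPKM at 12 h.

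Non-coding transcripts and pseudogenes made up much of the rises of at least 1 log2 unit. Of the 49 genes, 20 were protein-coding (40.8%) and 25 had another biotype, whereas 500 of the 534 falls were protein-coding (93.6%) and so were 81% of all genes tested. Of the 25, 19 (76.0%) lay wholly inside the span of a protein-coding gene, compared with 37.7% of the 2374 such genes tested. Of the 49, 13 were processed, transcribed processed or unprocessed pseudogenes, as were 461 of all 14797 genes tested. Other classes of pseudogene were not counted. Without a statement of strand in the sources used here, reads of such a gene and of its host cannot be told apart. The threshold was set on these same values, so the shares carry no test.

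Many genes of DNA replication fell. Of 40 tested members, 22 were lower and 0 higher at 12 h. As deposited, the background for this and every list below is 28.7% lower and 5.1% higher among all genes tested. Relative to the median gene it is 11.9% lower and 16.3% higher. Under median-of-ratios scaling 1856 of 14797 genes were lower and 2663 higher, and under equal sums of FPKM 3957 and 414. Far fewer genes passed without the TE7 library of 6 h, as given above, so counts without it are not set against these shares. The list's median change was -0.58 against -0.28 over all genes tested. All but 3 were lower in both lines (37 of 40). Relative to the median gene, 9 fell and 0 rose. After POLA2, PRIM1 and RFC4 came GINS1 (-1.34 ± 0.22), a subunit of the replicative helicase complex, and CDC6 (-1.10 ± 0.10), which loads that helicase onto origins. CDC6 had 13.5 FPKM in KYSE510 and 25.8 FPKM in TE7 at 12 h, against 28.9 and 59.4 FPKM at 6 h (limma adjusted p = 0.00279). Without the TE7 library of 6 h, 4 of the 40 were lower, and under median-of-ratios scaling 8 were lower and 2 higher, with the median at -0.19.

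The E2F family of transcription factors binds many promoters of replication genes. E2F1 (chromosome 20, 32263489 to 32274210), its best-known activator, had 7.02 FPKM in KYSE510 and 6.01 FPKM in TE7 at 12 h, against 21.0 and 33.1 FPKM at 6 h, a change of -1.87 ± 0.29 (limma adjusted p = 0.00661). RefSeq promoters (GRCh38.p14; 250 bases before to 50 after the start) were matched for 34 of the 40 replication genes. The letters TTTNNCGC, a common form of the E2F motif, stood on either strand in 20 of the 34 (58.8%), against 6.9% of the 27305 promoters in the table. The share was 12 of 19 among members that fell and 8 of 15 among those that did not pass. The promoters of 3 fallen members are shown because they carry the letters, in capitals, on the gene's strand or as the reverse complement GCGNNAAA. They are examples and not a ranking of all fallen members with a match.
POLA2: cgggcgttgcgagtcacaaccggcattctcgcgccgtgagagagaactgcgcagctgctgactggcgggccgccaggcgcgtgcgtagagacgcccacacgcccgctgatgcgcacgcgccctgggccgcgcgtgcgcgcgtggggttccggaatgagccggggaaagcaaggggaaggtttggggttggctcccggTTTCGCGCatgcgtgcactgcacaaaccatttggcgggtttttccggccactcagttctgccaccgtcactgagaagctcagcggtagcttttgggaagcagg
GINS1: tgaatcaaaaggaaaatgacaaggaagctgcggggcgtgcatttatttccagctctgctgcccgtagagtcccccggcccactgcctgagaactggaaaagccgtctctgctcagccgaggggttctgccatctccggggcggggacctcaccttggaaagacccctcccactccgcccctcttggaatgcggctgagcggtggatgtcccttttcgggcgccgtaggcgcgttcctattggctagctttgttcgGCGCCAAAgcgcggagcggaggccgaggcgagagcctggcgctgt
CDC6: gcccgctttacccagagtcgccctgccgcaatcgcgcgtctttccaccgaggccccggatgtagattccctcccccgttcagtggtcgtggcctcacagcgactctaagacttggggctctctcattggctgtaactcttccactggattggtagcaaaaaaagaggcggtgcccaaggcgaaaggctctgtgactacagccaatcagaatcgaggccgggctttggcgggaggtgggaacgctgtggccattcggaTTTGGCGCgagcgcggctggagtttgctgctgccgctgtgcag
The windows are chr11:65261712-65262011, chr20:25407423-25407722 and chr17:40287629-40287928, all on the plus strand. Each holds 1 match, 53 bases before the start in POLA2 and just after the start in GINS1 and CDC6, counted to the match's first letter. A match in letters is a description and not a measured site of binding.

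Homologous recombination and Fanconi anaemia genes, which repair double-strand breaks and crosslinks, fell in larger numbers. Of 35 tested, 24 were lower and 0 higher, the median was -0.67, and relative to the median gene 11 fell and 1 rose. BRCA1, named after its values were seen, had 2.53 FPKM in KYSE510 and 2.16 FPKM in TE7 at 12 h, against 8.93 and 12.3 FPKM at 6 h, a change of -1.78 ± 0.20 (limma adjusted p = 0.00335). Its partner PALB2 changed by -1.33 ± 0.15, and the recombination genes RAD51B, RAD51D and XRCC3 by -1.25 ± 0.13, -1.20 ± 0.13 and -1.14 ± 0.11. Their 12 h values lay below their 6 h values in each line. Without the TE7 library of 6 h, 7 of the 35 were lower, and under median-of-ratios scaling 10 were lower and 1 higher (median -0.39).

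Among G1 cyclins, cyclin-dependent kinase inhibitors and E2F genes, 10 of 22 were lower and 1 higher. CCNE1 changed by -0.99 ± 0.13 and CCNA2 by -1.05 ± 0.15, the cyclins of S-phase entry and progression, while CDKN1B was the member that rose. The inhibitor CDKN1A had 8.83 and 6.20 FPKM at 12 h in KYSE510 and TE7, against 28.5 and 14.4 FPKM at 6 h (-1.34 ± 0.30, limma adjusted p = 0.0194), so these 2 inhibitors moved in opposite directions. Mitosis genes had 14 of 32 lower and 1 higher (median -0.37), with KIF11, the spindle motor, at -1.32 ± 0.10, and CDC25B, a phosphatase that activates CDK1, at -1.15 ± 0.12. The centromere motor CENPE rose by 0.72 ± 0.16. The medians of the mitosis and Mediator lists lay within 0.02 of 0 under median-of-ratios and upper-quartile scaling.

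p53 targets had 13 of 23 lower and 0 higher, with a median of -0.67, and relative to the median gene 8 fell and 1 rose. PHLDA3, an inhibitor of AKT, changed by -1.4 ± 0.20 and XPC, a DNA damage sensor, by -1.06 ± 0.15. MDM2, the ubiquitin ligase of p53, had 11.9 and 6.72 FPKM at 12 h in KYSE510 and TE7, against 21.0 and 17.4 FPKM at 6 h (-1.01 ± 0.15). Without the TE7 library of 6 h, 1 of the 23 was lower, and under median-of-ratios scaling 7 were lower and 2 higher (median -0.37). Genes that promote apoptosis had 11 of 20 lower and 0 higher (median -0.58), with the death receptor TNFRSF10B at -1.41 ± 0.22. Genes that restrain apoptosis had 4 of 10 lower and 0 higher (median -0.37), with BCL2L2 at -0.97 ± 0.10 and BCL2L1 at -0.76 ± 0.11. The short-lived MCL1 was at -0.46 ± 0.19 (limma adjusted p = 0.112).

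Cytosolic ribosomal protein genes stood at the other end. Of 79 tested, 37 were higher and 0 lower at 12 h, the median change was 0.25, and relative to the median gene 67 rose and 0 fell. Their share of summed FPKM was 18.78% in KYSE510 at 12 h, against 14.21% at 6 h, and 14.82% in TE7 at 12 h, against 14.28% at 6 h. The short gene held 8.9% of the KYSE510 sum at 6 h. Mitochondrially encoded genes held 27.29% of the TE7 sum at 12 h, against 18.89% at 6 h. The rise in share is therefore not comparable between the lines. The list itself summed to 96288 FPKM in KYSE510 at 12 h, against 76156 at 6 h. In TE7 it summed to 108135 FPKM at 12 h, against 92853 at 6 h. RPL12 had 1411 FPKM in KYSE510 and 1929 FPKM in TE7 at 12 h, against 986 and 1243 FPKM at 6 h (0.58 ± 0.06, limma adjusted p = 0.00315). RPL39 had 741 and 3762 FPKM at 12 h, against 484 and 2384 FPKM at 6 h (0.64 ± 0.07). The members' changes had a median of 0.33 in KYSE510 and 0.17 in TE7. Ribosomal protein genes have many near-identical pseudogenes, so single members are uncertain. Without the TE7 library of 6 h, or without the KYSE510 library of 6 h, 0 members passed, with the median at 0.25 in both cases, and without the KYSE510 library of 12 h 32 were higher and 7 lower. Equal sums of FPKM left 17 higher and 0 lower, and median-of-ratios scaling gave 72 higher and 0 lower.

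Nuclear genes of oxidative phosphorylation moved likewise, with 32 of 78 higher and 4 lower, a median of 0.22, and 64 higher and 0 lower relative to the median gene. COX8A had 550 FPKM in KYSE510 and 1086 FPKM in TE7 at 12 h, against 391 and 706 FPKM at 6 h (0.56 ± 0.07), and COX6C changed by 0.60 ± 0.07; both are subunits of cytochrome c oxidase. NDUFV3, NDUFA8 and NDUFV2, of complex I, were among those that fell. Without either library of 6 h, 0 members rose, equal sums of FPKM left 18 higher and 3 lower, and median-of-ratios scaling gave 68 higher and 0 lower. Of their mitochondrially encoded partners, MT-CO1 was listed at 0 in the 4 KYSE510 libraries, while MT-ATP6 was listed there at 93.4 FPKM at 12 h, against 71.7 FPKM at 6 h. A listed 0 in a table without counts can be a failed estimate, so no level of these genes is read in KYSE510. In TE7 MT-CO1 had 17304 FPKM at 12 h, against 8301 FPKM at 6 h. None of 13 such genes passed as deposited.

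Of 76 mitochondrial ribosomal protein genes tested, 38 were lower and 1 higher, and the median was -0.44. MRPL36 had 13.1 FPKM in KYSE510 and 20.6 FPKM in TE7 at 12 h, against 42.3 and 72.7 FPKM at 6 h (-1.70 ± 0.11, limma adjusted p = 0.00238). MRPL17 changed by -1.37 ± 0.14 and MRPL27 by -1.20 ± 0.14, and MRPL34 was the member that rose (0.61 ± 0.10). Relative to the median gene 16 fell and 8 rose, and under median-of-ratios scaling 14 were lower and 13 higher. Cytoplasmic aminoacyl-tRNA synthetases had 10 of 20 lower and 0 higher, with FARSA at -1.51 ± 0.10 and AARS at -1.19 ± 0.14. Of 32 ribosome biogenesis genes, 12 were lower and 2 higher. Proteasome genes were divided, with 6 of 31 higher, PSMD2 among them at 0.48 ± 0.07, and 5 lower, PSMC6 among them at -0.80 ± 0.16.

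Replication-dependent histone genes, whose messages normally end in a stem-loop and lack a poly(A) tail, rose in these libraries of polyadenylated RNA. Of 25 listed, 17 were tested, 9 of them higher and 0 lower. The median was 0.53, and relative to the median gene 13 rose. The filter counted the 12 h libraries, so a member could be tested through its 12 h values alone. HIST1H2AG, among the 9, was below 1 FPKM in both lines at 2, 4 and 6 h. It had 1.87 FPKM in KYSE510 and 2.47 FPKM in TE7 at 12 h. With a mean of at least 5 FPKM required, 5 were tested, and 3 of these were higher and 0 lower. HIST1H4C had 11.0 FPKM in KYSE510 and 7.22 FPKM in TE7 at 12 h, against 3.19 and 1.13 FPKM at 6 h (1.73 ± 0.21, limma adjusted p = 0.00367). HIST2H2BE had 9.24 and 17.8 FPKM at 12 h, against 4.02 and 8.17 FPKM at 6 h (1.03 ± 0.13). HIST1H2BK, the most abundant of those named, had 128 and 67.5 FPKM at 12 h, against 83.6 and 44.6 FPKM at 6 h (0.60 ± 0.09). Histone genes are near-identical copies, so assignment of reads among them is uncertain. Without the TE7 library of 6 h, 3 of the 17 were higher.

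**Figure D3:**
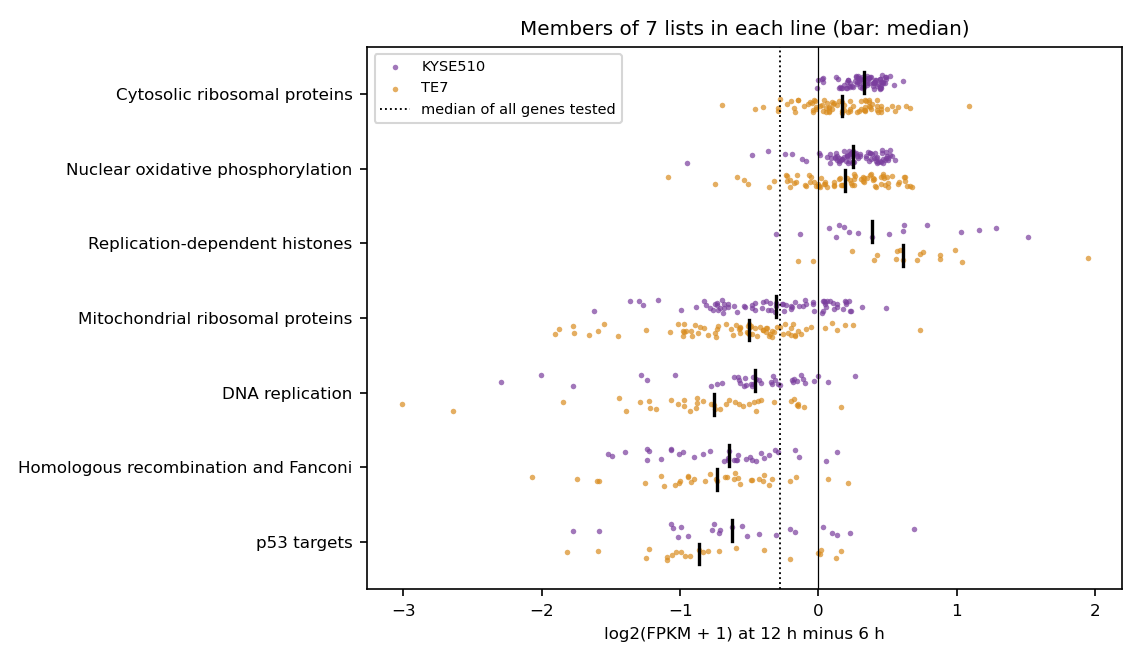
Difference in log2(FPKM + 1) at 12 h minus 6 h (x axis) for each tested member of 7 gene lists, KYSE510 above TE7 in each row, with a bar at each median and a dotted line at the median of all genes tested (-0.28). Cytosolic ribosomal protein, oxidative phosphorylation and histone genes lie to the right, and replication, recombination and p53 target genes to the left.

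Of the targets of THZ1, CDK7 and CDK12 fell and CDK13 did not pass. CDK7 had 13.8 FPKM in KYSE510 and 11.3 FPKM in TE7 at 12 h, against 24.6 and 22.3 FPKM at 6 h (-0.85 ± 0.11, limma adjusted p = 0.00426). CDK12 had 10.6 and 5.22 FPKM at 12 h, against 23.7 and 13.2 FPKM at 6 h (-1.14 ± 0.15, limma adjusted p = 0.00443). CDK13 had 5.72 and 6.56 FPKM at 12 h, against 6.93 and 4.36 FPKM at 6 h (0.13 ± 0.20, limma adjusted p = 0.631), lower in KYSE510 and higher in TE7. Of the list's 16 members 8 were lower and 2 higher. LARP7 (-1.07 ± 0.18) and MEPCE (-1.26 ± 0.25), which hold the elongation kinase complex P-TEFb inactive, fell. CCNT2, a cyclin of that complex, rose by 0.62 ± 0.10.

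The complexes of the transcription machinery are given by their own counts, beside 28.7% lower and 5.1% higher among all genes tested. Differences between them were not tested. RNA polymerase II subunits had 1 of 12 lower, POLR2D (-0.74 ± 0.11), and 2 higher, POLR2L (0.35 ± 0.08) and POLR2F (0.33 ± 0.09). Mediator, which links activators to the polymerase, had 14 of 29 lower and 3 higher, with MED8 at -1.36 ± 0.12 and MED15 at 0.78 ± 0.10. TFIID and general factors had 12 of 30 lower and 0 higher. Cleavage, polyadenylation and Integrator genes had 14 of 28 lower and 2 higher, with the cleavage endonuclease CPSF3 at -1.61 ± 0.30 and PCF11, a termination factor, at 0.78 ± 0.20. In mRNA export, the receptor gene NXF1 rose by 0.52 ± 0.08 beside SRRT, while CHTOP, an export adaptor, changed by -1.49 ± 0.18. SRSF1, SRSF3 and SRSF6, splicing regulators of the SR family, changed by -1.19 ± 0.17, -1.47 ± 0.23 and -1.17 ± 0.17, while the splicing kinase CLK1 rose by 0.82 ± 0.20.

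The 5 super-enhancer genes are those the study's own work singled out, partly by their response to THZ1, so their direction is no independent evidence. PAK4, a kinase, had 11.5 FPKM in KYSE510 and 7.86 FPKM in TE7 at 12 h, against 25.9 and 20.1 FPKM at 6 h (-1.18 ± 0.12, limma adjusted p = 0.00294). RUNX1, a transcription factor, changed by -0.82 ± 0.18, DNAJB1, a chaperone, by -0.80 ± 0.17, and YAP1, a coactivator of the Hippo pathway, by -0.39 ± 0.12 (limma adjusted p = 0.0468). SREBF2, a regulator of sterol synthesis, was at -0.20 ± 0.10 (limma adjusted p = 0.157). Relative to the median gene PAK4 alone of the 5 passed, at -0.85, and YAP1 stood at -0.06. Under median-of-ratios scaling YAP1 was at 0.0087.

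Squamous lineage transcription factors had 5 of 17 lower and 0 higher, a share of falls near the 28.7% over all genes tested, and relative to the median gene 2 fell and 1 rose. TP63, the master regulator of squamous epithelium, had 19.1 FPKM in KYSE510 and 13.6 FPKM in TE7 at 12 h, against 50.8 and 21.2 FPKM at 6 h (-0.98 ± 0.21, limma adjusted p = 0.0169), and TP73 changed by -1.29 ± 0.23. Keratin and desmosome genes had 3 of 23 higher (KRT5, KRT8 and KRT17) and 3 lower (KRT19, PKP2 and DSP), with 10 higher and 0 lower relative to the median gene. KRT8 had 614 and 304 FPKM at 12 h in KYSE510 and TE7, against 520 and 245 FPKM at 6 h (0.28 ± 0.07, limma adjusted p = 0.0227).

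Immediate-early genes, which respond first to growth signals, had 7 of 29 lower and 4 higher, beside 28.7% lower and 5.1% higher among all genes tested. Besides FOSL1, JUND (-1.88 ± 0.14) and CSRNP1 (-1.48 ± 0.13) fell, and besides JUNB, IER3 (1.07 ± 0.17), IER2 (0.99 ± 0.22) and JUN (0.45 ± 0.12) rose. AP-1 subunits therefore stood on both sides, FOSL1, FOSL2 and JUND lower and JUNB and JUN higher, with FOS at 0.44 ± 0.22 (limma adjusted p = 0.171). JUN had 6.78 and 8.33 FPKM at 12 h in KYSE510 and TE7, against 4.5 and 6.03 FPKM at 6 h. MAPK feedback and EGF receptor ligand genes had 9 of 21 lower and 0 higher, with the phosphatase DUSP5 at -1.14 ± 0.18 and ERRFI1, an inhibitor of the EGF receptor, at -1.10 ± 0.15.

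The stress and metabolic lists had shares of falls near or below the 28.7% over all genes tested, apart from interferon response genes. Integrated stress and unfolded protein response genes had 8 of 27 lower and 1 higher, and XBP1, a transcription factor of the unfolded protein response, changed by -1.66 ± 0.11. NF-kB pathway genes had 5 of 21 lower and 1 higher, with RELA, a subunit of NF-kB, at -1.12 ± 0.10. Interferon response genes had 10 of 28 lower and 2 higher, cholesterol synthesis genes 7 of 26 lower and 1 higher, and hypoxia and glycolysis genes 8 of 34 lower and 2 higher. GAPDH, the glycolytic enzyme often used as a reference, had 5971 and 4021 FPKM at 12 h in KYSE510 and TE7, against 4439 and 2517 FPKM at 6 h, and rose by 0.55 ± 0.08 (limma adjusted p = 0.00613). Heat shock chaperones had 5 of 20 lower and 2 higher, small nucleolar RNA host genes 4 of 17 lower and 3 higher, and spliceosome core genes 6 of 27 lower and 1 higher, each also below that share. Under median-of-ratios scaling the medians of the cholesterol, NF-kB, stress response, heat shock, hypoxia, spliceosome and small nucleolar RNA host lists lay above 0 (0.05 to 0.30).

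**Figure D4:**
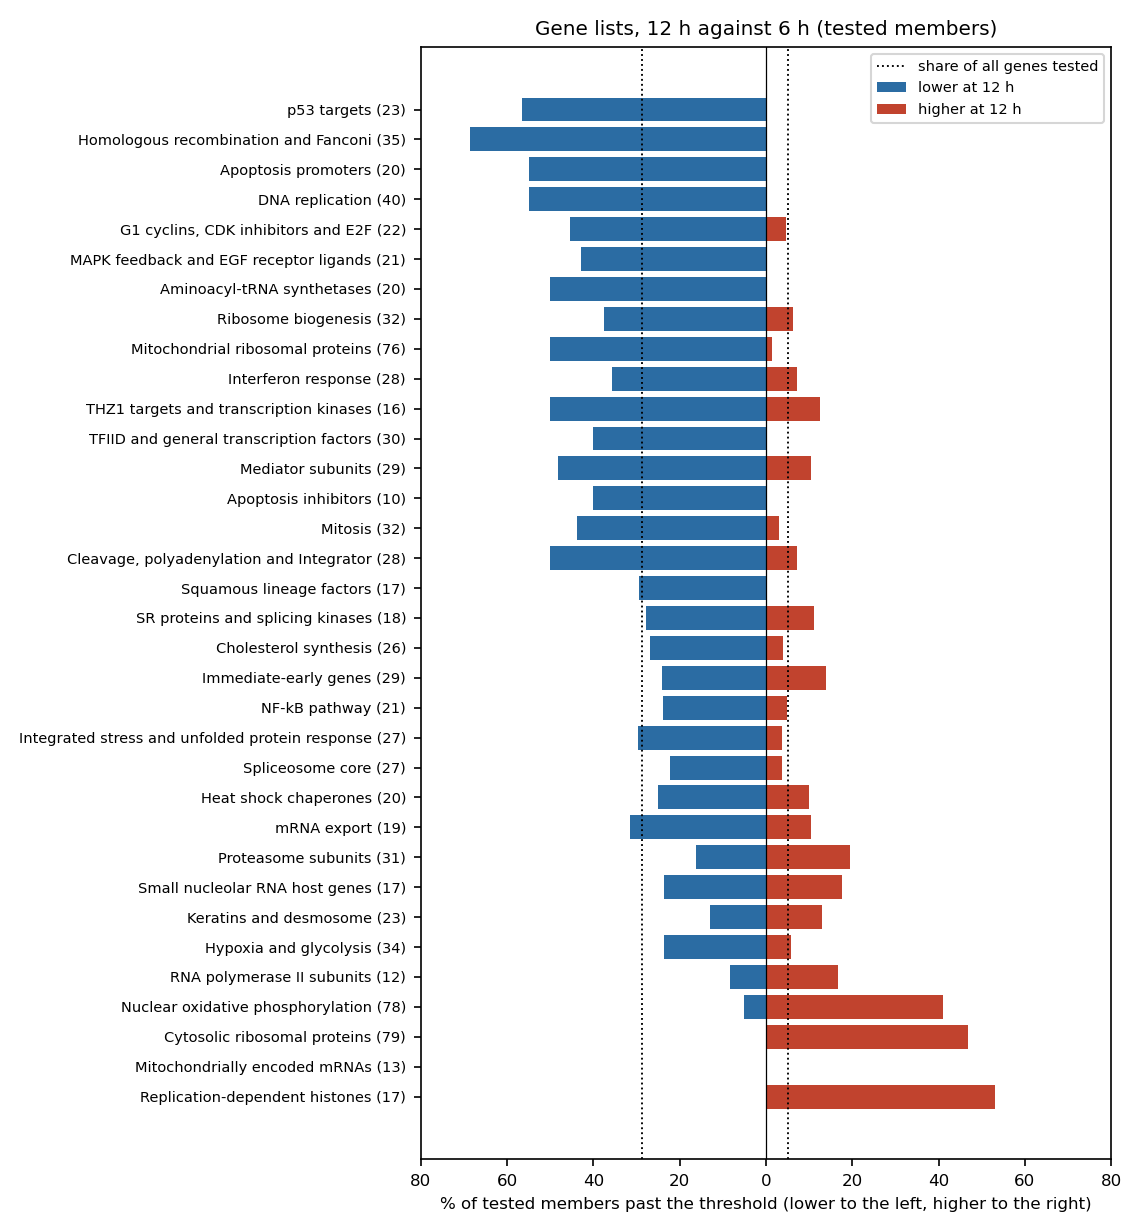
Percentage of tested members (numbers in brackets) lower (left) and higher (right) at 12 h than at 6 h for the 34 gene lists with at least 10 tested members, ordered by the list's median change. Dotted lines mark the shares among all genes tested, 28.7% lower and 5.1% higher; recombination genes reach furthest to the left and histone genes furthest to the right.

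Across nuclear protein-coding genes the calls varied more with level than with gene span. In the highest quartile of mean FPKM 13.0% were higher and 25.1% lower at 12 h, with a median change of -0.14, while in the lowest quartile 1.8% were higher and 18.7% lower. The middle quartiles had 43.3% and 44.3% lower. Over quartiles of span, the share of falls was 31.3%, 37.4%, 33.9% and 28.7% from the shortest to the longest genes. Zinc finger genes with a ZNF symbol had 78 of 344 lower (22.7%) and 13 higher (3.8%), beside 28.7% and 5.1% of all genes tested. Precision differs with level, so these shares are a description.

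KYSE510 minus TE7 at 12 h, set against the mean of that difference at 2, 4 and 6 h, passed limma's test for 2384 genes (16.1%). There is 1 such difference at 12 h, and the earlier times stand in for replicates, so the calls assume that it varies between repeats as it did between those times. With the libraries of 200 nM added, 0 genes passed (815 at an unadjusted p under 0.05). Of the 2384, 1692 stood higher in KYSE510 than in TE7 in this difference (11.4%) and 692 lower (4.68%). This fit used values as deposited, with no centred or rescaled version, and its median over all genes tested was 0.09. An offset shared by all genes was thus not removed from these counts. Summed FPKM of nuclear protein-coding genes was 475667 in KYSE510 and 476460 in TE7 at 12 h, against 459670 and 489519 at 6 h. At least 1 FPKM at 6 h in both lines was held by 2034 of the 2384, and 1404 of those were lower in both lines at 12 h than at 6 h, 1156 of them further down in TE7. Another 526 moved in opposite directions. HNRNPDL, a gene for an RNA-binding protein, had 96.6 FPKM in KYSE510 and 22.0 FPKM in TE7 at 12 h, against 180 and 145 FPKM at 6 h, a difference of 2.03 ± 0.19 (limma adjusted p = 0.0188). MYC, named after its values were seen, had 145 FPKM in KYSE510 and 32.7 FPKM in TE7 at 12 h, against 147 and 95.8 FPKM at 6 h, a difference of 1.23 ± 0.23 (limma adjusted p = 0.0266). Without the KYSE510 or the TE7 library of 4 h the count of genes was 254 or 814, and without a 6 h library it was 4082 (KYSE510) or 4461 (TE7).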

How the data were processed

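Gene tables in FPKM were deposited by the authors, and their columns are those of Cufflinks, per the file headers. The submitters' processing notes name STAR, Cufflinks and hg19; no version, annotation or strand setting is given in the sources used here, nor any total of fragments. Identifiers listed at several loci (108) were summed. Biotypes came from GENCODE 29, which matched 52328 of 57755 identifiers (90.6%). The authors' upper 95% bound of a gene lay in the median 8.75% and 9.57% above its value at 12 h in KYSE510 and TE7, against 7.76% and 7.91% at 6 h, which covers counting error only.

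A gene was tested if 2 or more of the 8 libraries at 50 nM held it at 1 FPKM or above. The scale was log2(FPKM + 1), which understates changes of low genes. limma 3.58.1 (R 4.3.3) was used two-sided with a mean-variance trend, a term per time and a cell-line block. P-values were adjusted by Benjamini-Hochberg across every gene tested, at 0.05. Residual degrees of freedom were 3 (2 for the line difference). The relative fit centred each library on its median deviation from the gene means. Libraries are paired by cell line; the lines' deviations at 12 h and 6 h correlated at 0.927 across genes. The fits were tested on simulated data.

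Members and lists were chosen with earlier results of these data known. The named genes are the 12 largest rises and falls past the threshold with a mean of at least 5 FPKM, the 8 largest each way relative to the median gene, up to 4 members per list, the super-enhancer genes, CDK7, CDK12 and CDK13, and 5 line differences per direction. BRCA1, GINS1, CDKN1A, MDM2, MCL1, CENPE, MRPL34, LARP7, MEPCE, CCNT2, CPSF3, PCF11, SRSF3, CLK1, FOS, FOSL2, JUN, IER2, KRT17, KRT19, MYC and the complex I genes given were named after their values were seen. Alternatives were pseudocounts, filters, scalings, variance settings, other sets of libraries, no block, and leaving out 1 library. Some genes are not reported here.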

Additional observations from a re-analysis of the deposited data

Results flagged for a closer look

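The change at 12 h, against the mean of 2, 4 and 6 h, passed a test of its difference between the lines for 2384 genes (limma, adjusted over all genes). The 12 h arm is a single difference and the other times stand in for replicates, and 0 genes passed with 10 or 12 libraries (815 and 453 at an unadjusted p under 0.05). The 5 largest in each direction with a mean of at least 5 FPKM are given as KYSE510 minus TE7 on the log2(FPKM + 1) scale.

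BNC1, a zinc finger gene of stratified epithelium, differed by 2.56 and DMRT2 by 2.26, but both were close to 0 in KYSE510, at or below 0.174 FPKM in its 4 libraries for BNC1 and at or below 0.0405 FPKM for DMRT2. In TE7 BNC1 had 1.5 FPKM at 12 h, against 9.46 FPKM at 6 h, and DMRT2 2.24 FPKM, against 12.5 FPKM. HNRNPDL differed by 2.03. PRIMPOL, which restarts stalled replication, differed by 2.02, with 6.04 FPKM in KYSE510 and 0.738 FPKM in TE7 at 12 h, against 5.34 and 4.34 FPKM at 6 h. DUSP6, a phosphatase of ERK, differed by 1.99, with 0.842 and 4.73 FPKM at 12 h, against 1.49 and 42.7 FPKM at 6 h.

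In the other direction stood the small nuclear RNA genes RNU2-2P (-3.98) and RNU6ATAC (-2.32), both listed at 0 in the 4 KYSE510 libraries. RNU2-2P had 56.0 FPKM in TE7 at 12 h, after 2.84, 2.82 and 2.21 FPKM at 2, 4 and 6 h. It reached the mean of 5 FPKM only through the library under test, so its place here is no separate support. UBE2Q2P6 (-3.46) and RPL9P8 (-3.28), pseudogenes or duplicated loci whose reads may belong elsewhere, ran together in TE7, at 31.0 and 31.5 FPKM at 12 h, against 6.47 and 6.63 FPKM at 6 h. Their means of 7.45 and 7.70 FPKM also rest largely on that 12 h library. NNAT, an imprinted gene, differed by -2.18, with 6.41 FPKM in KYSE510 and 36.1 FPKM in TE7 at 12 h, against 12.1 and 17.5 FPKM at 6 h. Each line has 1 library per time.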

How the results depend on the processing

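The test of 12 h against 6 h (5002 genes) gave 2666 with no filter on low values, 762 with the 2 libraries of 200 nM added and 182 with all 12 libraries, and 0 without the replicate block (2048 at an unadjusted p under 0.05); leaving out 1 library gave 0 to 7623. The relative test (4171) gave 2703 with no filter, 38 and 29 with 10 and 12 libraries, 0 with no replicate block (1488 at an unadjusted p under 0.05), and 0 to 6842 leaving out 1 library. The line difference (2384) gave 138 with no filter, 582 with no mean-variance trend, 0 with 10 and with 12 libraries (815 and 453 at an unadjusted p under 0.05), and 254 to 4461 leaving out 1 library; without a 12 h library it could not be fitted. For each the cause was not tested.

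Scaling set the balance of directions. Median-of-ratios and upper-quartile scaling gave more rises than falls, as printed with the main count, while equal sums of FPKM gave 414 higher and 3957 lower genes. Equal sums over nuclear protein-coding genes gave 802 higher and 4646 lower genes. That scaling leaves the mitochondrially encoded genes and the high short gene out of the sum. The sums it made equal were already close, so it could change little. They were 475667 in KYSE510 and 476460 in TE7 at 12 h, against 459670 and 489519 at 6 h. Whether the make-up of the libraries sets the balance was not tested. Under median-of-ratios scaling YAP1 reversed to 0.0087 (adjusted p = 0.952); no other named call reversed under any setting run. Cytosolic ribosomal protein genes kept a median above 0 under the 4 scalings (0.20 to 0.66), and those of DNA replication one below 0 (-0.63 to -0.19). Pseudocounts of 0.1 and 5 gave 5519 and 4169 genes, and the relative test with 5 gave 1637 higher and 1773 lower.

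Of 150 named calls, 144 passed with the 6 h and 12 h libraries alone, 56 without the TE7 library of 6 h and 0 without the KYSE510 one. Fragment totals were not used here, so the depth behind a value is unknown.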
